A study of Brassica napus with 45 samples.

Results

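The genes described here had higher values in leaves of Brassica napus (rapeseed) after abscisic acid (ABA) in one wild type of the study and not in the other. The difference used throughout is the mean of log2(value + 1) over the 3 treated libraries minus that over the 3 untreated libraries of a genotype. A gene was a member where this ABA difference was at least 2 in the wild type of the overexpression experiment (WT-OE below) and under 0.5 in the wild type of the knockout experiment (WT-KO below). This gave 132 members among the 78057 genes listed for both experiments, or 0.169% of them, and 13.5% of the 976 genes with a difference of at least 2 in WT-OE. The number rests on the constant added before the log: with 0.1 in place of 1 the rule gave 470 genes, 116 of them shared with the 132. The untreated and ABA libraries of both wild types chose the members, so their values are given as a description with no test. What the rule did not use were the libraries of the mutants and all libraries treated with polyethylene glycol (PEG).

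The study measured leaf RNA from a knockout line of BnNAC038 (BnNAC038-KO-1), from 2 lines that overexpress it (BnNAC038-OE-1 and BnNAC038-OE-2, lines 1 and 2 below) and from a wild type for each experiment. Seedlings in Hoagland's solution were untreated, given 50 µM ABA for 3 h or given 20% PEG for 6 h, with 3 libraries in each of the 15 groups. WT-KO, whose columns carry the name K407, and the knockout made up the 18 libraries of the knockout experiment. WT-OE and lines 1 and 2 made up the 27 of the overexpression experiment. The knockout is a single line, and the labels do not give the promoter that drives the overexpression or the difference between the wild types.

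ABA is a plant hormone that accumulates under water shortage. It is bound by PYR/PYL receptors, which then inhibit PP2C phosphatases and so release SnRK2 kinases, and these activate transcription factors of the ABF/AREB group that raise many stress genes. PEG lowers the water potential around the roots and so imposes an osmotic stress that also acts in part through ABA. NAC proteins are a family of plant transcription factors, several of which act in drought responses and leaf ageing. The rapeseed genome combines an A and a C subgenome, so many genes exist as close copies.

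The deposited identifiers carry no gene names, so the members could not be grouped by function. Libraries of the knockout experiment listed 33267 to 39156 genes at 1 or more, and those of the overexpression experiment 38105 to 41754. Read depth is unknown, because both blocks of values were normalized by the authors. The overexpression values are TPM, a length-corrected relative abundance, and the knockout values are another normalized value per gene. They were normalized separately, so levels were not tested between the experiments. In whole leaves, fewer cells of a type and less RNA per cell cannot be told apart.

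The ABA-treated WT-OE libraries did not resemble each other in genes that mark the overexpression lines. Apart from members, 89 genes stood at least 2 above untreated WT-OE in both untreated lines, a list chosen after seeing the data. In the ABA libraries labelled WT-OE, the median of log2(TPM + 1) of these genes above untreated WT-OE was 0.00 in replicate 1, 1.67 in replicate 2 and 1.49 in replicate 3. The PEG libraries of WT-OE lay between 0.20 and 0.26, and the ABA libraries of the lines between 2.504 and 2.79. ABA replicates 2 and 3 of WT-OE thus lay between untreated WT-OE and the lines in these genes, which replicate 1 did not.

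The same was seen less evenly in the 100 genes at least 2 below untreated WT-OE in both untreated lines, none of them a member. Their medians were -0.25, -1.14 and -0.59 in ABA replicates 1, 2 and 3 of WT-OE, between -0.41 and -0.07 in its PEG libraries and between -2.96 and -2.76 in the ABA libraries of the lines. Whether the libraries labelled ABA-treated WT-OE replicates 2 and 3 hold RNA of a line was not tested. With ABA-treated WT-OE replicate 1 alone the rule gave 158 genes, of which 112 were among the 132.

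This bears most on 9 of the 132 members. In ABA-treated WT-OE replicate 1 these 9 lay under 0.5 above untreated WT-OE on the log2(TPM + 1) scale, so that their membership rests on replicates 2 and 3. Their summed TPM was 1.92, 1.72 and 2.18 in untreated WT-OE and 1.20, 399 and 303 with ABA. Most of the sums in ABA replicates 2 and 3 came from BnaC06G0382800ZS. The median TPM over the 9 was 0 in each untreated WT-OE library and 0, 16.3 and 14.0 with ABA. Over all members replicate 1 did not stand apart: the median of log2(TPM + 1) above untreated WT-OE was 2.44, 2.54 and 2.60 in the 3 ABA libraries. Results without these 9 members are given beside the counts and medians that they move most, and their difference in WT-OE is not described as a response to ABA.

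In WT-OE the ABA difference of the members had a median of 2.48 and ran to 5.80. It was at least 3 in 31 members, at least 4 in 10 and under 2.5 in 69. In WT-KO the median was 0.00, from -3.85 to 0.49, and 19 members lay at -1 or less. All 9 flat members were among these 19, with differences in WT-KO from -3.85 to -1.07. Across all genes, 1.25% reached 2 in WT-OE, 0.887% reached 2 in WT-KO and 5.05% lay at -1 or less in WT-KO. The members nearest the limit of 2 were BnaC06G0382400ZS and BnaA09G0045000ZS, both at 2.01, and just outside it stood BnaC03G0085200ZS at 1.9995 and BnaA09G0186200ZS at 1.99. BnaC06G0382400ZS was also the member nearest the limit of 0.5, at 0.49 in WT-KO, with BnaC07G0120600ZS just outside at 0.51.

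BnaA07G0249300ZS had the highest ABA difference of the members in WT-OE. Its TPM was 0.648, 0.704 and 0.583 untreated and 65.1, 117 and 98.6 with ABA. In WT-KO its value was 130, 83.2 and 180 untreated and 104, 98.6 and 122 with ABA. Its ABA libraries stood far above untreated in WT-OE and overlapped with untreated in WT-KO, where the untreated values already reached those with ABA.

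BnaC08G0185600ZS was next. It was listed at 0 in the 3 untreated WT-OE libraries and had a TPM of 30.7, 28.5 and 25.1 with ABA. In WT-KO it was listed at 0 in all 9 libraries. These members stand for a pair of ways in which a gene met the rule. In 24 of the 132 the value was under 1 in all 6 untreated and ABA libraries of WT-KO, and 7 of these were listed at 0 in all 6. The other 108 were present there. Their ABA difference in WT-KO was at most -1 in 19, between -1 and 0 in 40 and between 0 and 0.5 in 49. The 19 include all 9 flat members.

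The rank of the members among the 78057 genes within each group showed where they stood before treatment. In untreated WT-KO the median member stood at percentile 92.1, and in untreated WT-OE at percentile 60.8. These groups were used by the rule, but the untreated mutants were not. The median was percentile 90.9 in the untreated knockout, 66.6 in untreated line 1 and 69.4 in untreated line 2. Of the 132, 68 (51.5%) stood above the 90th percentile in the untreated knockout, and 26 in each untreated line. The 399 genes with an ABA difference of at least 2 in both wild types had medians of 73.2, 61.3 and 62.7 in the same untreated groups, and 23.3% of them stood above the 90th percentile in the untreated knockout. The 399 had to rise in WT-KO and the members had not to, which favours lower untreated ranks of the 399 in that experiment. Their contrast with the members in the untreated knockout is thus in part built in by the choice of both lists. With ABA the median member stood at percentile 91.3 in WT-OE, 91.6 in line 1, 90.3 in line 2, 89.9 in WT-KO and 91.7 in the knockout. With ABA the median rank over all 132 in the overexpression experiment was thus close to that held in the knockout experiment with and without ABA. This did not hold for the 24 members under 1 in WT-KO, whose low rank there is built in by that choice. Untreated and with ABA, their median percentile was 18.8 and 26.3 in WT-KO and 22.7 and 23.4 in the knockout. With ABA it was 81.8 in WT-OE, 79.7 in line 1 and 79.9 in line 2. These are ranks within each group, given as a description.

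**Figure D1:**
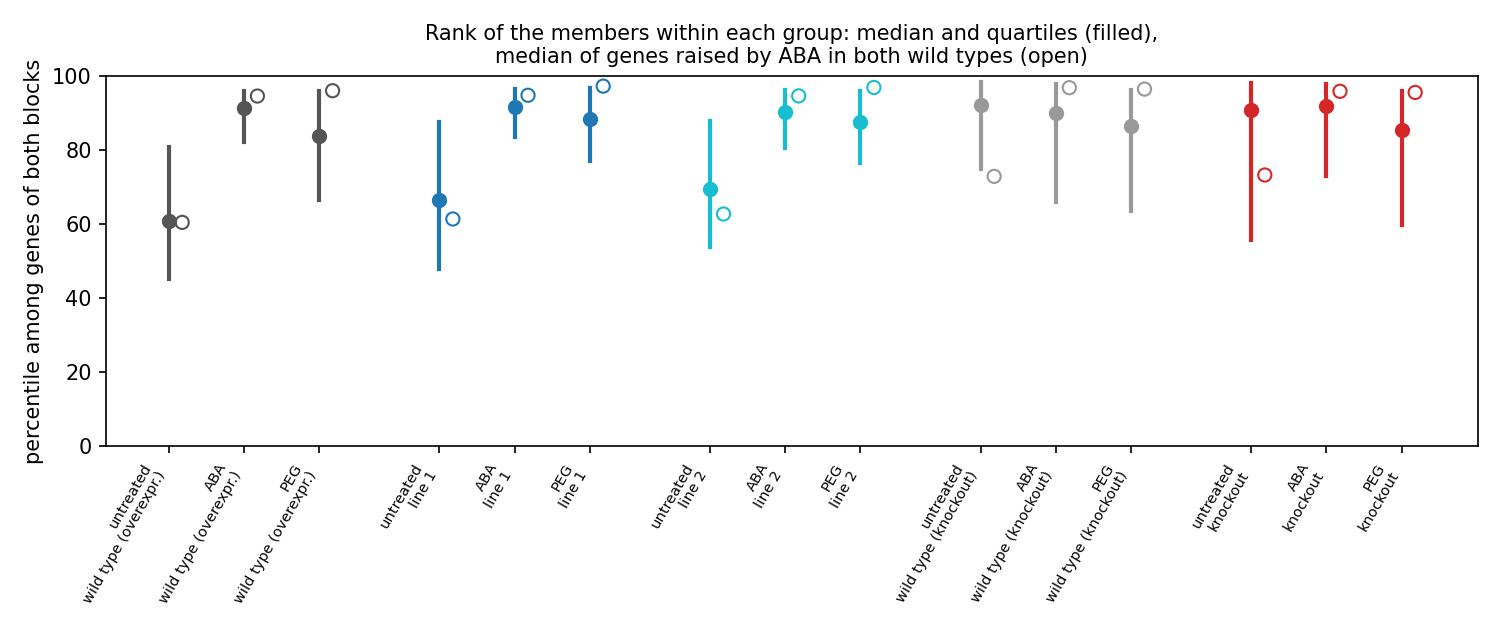
Percentile rank of the 132 members among the genes of both blocks, by group. Filled points are the median over members and bars run from the lower to the upper quartile, and open points are the median of the 399 genes raised in both wild types. The untreated groups of the knockout experiment sit at 92.1 and 90.9, and those of the overexpression experiment between 60.8 and 69.4.

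Whether the members rose with ABA within each overexpression line was tested with limma on log2(TPM + 1). The ABA responses of the lines were not tested against that of WT-OE, because the rule had used its libraries. The difference came from a line's own ABA and untreated libraries. The spread came from all groups of the experiment, including the WT-OE libraries that the rule used. All 132 members entered the test, because the rule had made them high in this experiment. In line 1, 116 of 132 (87.9%) were higher with ABA at a Benjamini-Hochberg adjusted p under 0.05 over all 47474 genes tested, against a background of 15.9% of all genes. In line 2, 110 of 132 (83.3%) were higher, against a background of 14.1%. Of the 399 genes raised by ABA in both wild types, 397 were higher in line 1 and 398 in line 2. No member was lower in either line by limma, at the adjusted or at an unadjusted p under 0.05, where 17.9% of all genes tested were lower in line 1 and 16.2% in line 2. The median log2 difference was 2.32 in line 1 and 1.99 in line 2, beside medians of -0.05 and -0.07 over all genes tested.

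Both lines raised 110 of the members (12.3% of all genes tested), and 16 were called in neither. The ratio of a line's difference to that of WT-OE had a median of 0.931 in line 1 and 0.799 in line 2. The rule kept only large differences in WT-OE, which favours ratios under 1, and the flat members described above are included. These ratios therefore do not show a weaker response of the lines. In the direct comparison of lines 2 and 1 with ABA, limma called 0 members higher and 0 lower, against 0.0969% and 0.0295% of all genes. At an unadjusted p under 0.05, 2 members were higher and 16 lower in line 2.

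Ranked by the smaller of the changes in lines 1 and 2, BnaC08G0335900ZS came first among the members called in both. Its TPM in line 1 was 20.1, 18.6 and 21.2 untreated and 765, 732 and 629 with ABA, a log2 difference of 5.08 ± 0.22 (SE, limma adjusted p = 5.93e-14). In line 2 it was 20.8, 15.6 and 23.1 untreated and 569, 599 and 686 with ABA, a change of 4.90 ± 0.22 (limma adjusted p = 1.43e-13). WT-OE went from 22.2, 26.1 and 22.3 to 756, 653 and 524, so its ABA libraries overlapped with those of both lines.

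In BnaC08G0185600ZS, the TPM in line 1 was 0.304, 0.858 and 0.662 untreated and 38.0, 29.2 and 33.8 with ABA (4.44 ± 0.21 on the log2 scale, SE, limma adjusted p = 1.82e-13). In line 2 it went from 1.49, 1.20 and 0.619 to 25.6, 34.2 and 30.1 (3.89 ± 0.21, limma adjusted p = 2.30e-12). BnaA07G0249300ZS rose more in line 1 (5.20 ± 0.53) and less in line 2 (3.30 ± 0.53), and held 42.7, 60.1 and 88.8 TPM in line 1 with ABA and 25.8, 24.9 and 29.6 in line 2. The log2 difference of line 2 from line 1 was -1.17 ± 0.53 (SE) and was not called (limma adjusted p = 0.978), although their ABA values did not overlap.

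**Figure D2:**
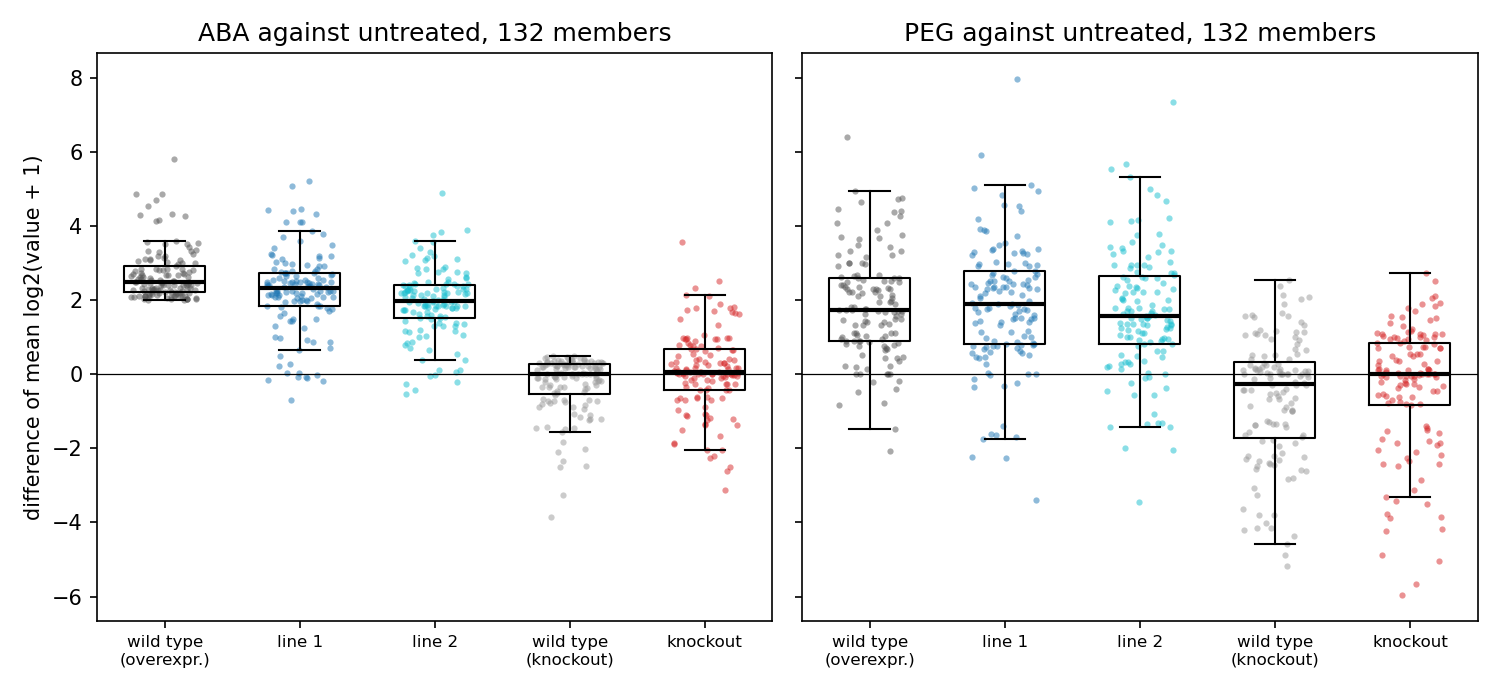
Difference of mean log2(value + 1), ABA (left) or PEG (right) against untreated, for each of the 132 members (points) in each genotype, with the median and quartiles as boxes. The medians with ABA are 2.48 in WT-OE, 2.32 in line 1, 1.99 in line 2, 0.00 in WT-KO and 0.05 in the knockout. The ABA values of both wild types were fixed by the rule.

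Of the 16 members called with ABA in neither line, 10 stood at least 2 above untreated WT-OE in both untreated lines. They were BnaA04G0140000ZS and the 9 members flat in ABA-treated WT-OE replicate 1. All 9 members that were flat in ABA-treated WT-OE replicate 1 had every untreated value of both lines above every untreated value of WT-OE. None of the 9 was called with ABA in either line. The model's spread for them took in the ABA-treated WT-OE libraries, which differed widely in these genes. A missing call therefore does not show that the lines held them steady. Their summed TPM in line 1 was 736, 764 and 733 untreated and 730, 782 and 640 with ABA. In line 2 it was 650, 755 and 809 untreated and 710, 634 and 779 with ABA. Most of each sum came from BnaC06G0382800ZS. The median TPM over the 9 in line 1 was 24.1, 35.1 and 30.4 untreated and 34.1, 44.6 and 37.1 with ABA. In line 2 the median was 34.1, 40.2 and 43.2 untreated and 42.2, 35.6 and 37.2 with ABA. Of the other 123 members, 116 (94.3%) were higher with ABA in line 1 and 110 (89.4%) in line 2.

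Untreated, 12 members stood at least 2 above WT-OE in line 1 and 12 in line 2, where 0.146% and 0.163% of all genes did. The 9 were among them in both lines. The comparison shares the untreated WT-OE libraries with the rule and so was not tested. BnaC06G0382800ZS had the largest such difference. Its TPM was 0.337, 1.18 and 0.608 in untreated WT-OE, 482, 467 and 459 in untreated line 1 and 387, 465 and 505 in untreated line 2. With ABA, WT-OE held 1.20, 258 and 199, line 1 held 472, 500 and 365, and line 2 held 434, 370 and 509. ABA replicate 1 of WT-OE lay close to untreated WT-OE, and replicates 2 and 3 lay between untreated WT-OE and the lines, as they did in the 89 genes above.

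BnaA10G0187900ZS was listed at 0 in every untreated and PEG library of WT-OE and in ABA replicate 1, and had a TPM of 26.0 and 21.7 in ABA replicates 2 and 3. In line 1 it held 52.4, 59.0 and 55.0 untreated and 50.6, 54.5 and 51.9 with ABA. In line 2 it held 59.8, 66.1 and 57.8 untreated and 47.2, 51.9 and 53.9 with ABA. The lines were thus high in every condition, with no call for ABA in either (limma adjusted p = 0.947 in line 1 and 0.814 in line 2). In line 2 every ABA library nonetheless lay below every untreated one, so the missing call does not show that the gene was flat there.

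The members with the lowest ABA change over both lines were BnaA10G0171600ZS, 1 of the 9, and BnaC03G0432500ZS. The first went from a TPM of 73.2, 85.1 and 76.1 to 47.2, 44.6 and 52.5 in line 1, a log2 difference of -0.69 ± 0.67 (SE) that was not called (limma adjusted p = 0.472). It was called in a model of the compared groups alone (limma adjusted p = 0.00164). The second varied within groups, with 0, 13.3 and 10.04 TPM in untreated line 2 and 0, 7.70 and 6.35 with ABA. Its change there of -0.43 ± 1.02 (SE) was not called (limma adjusted p = 0.794), and it turned positive when single libraries were left out.

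**Figure D3:**
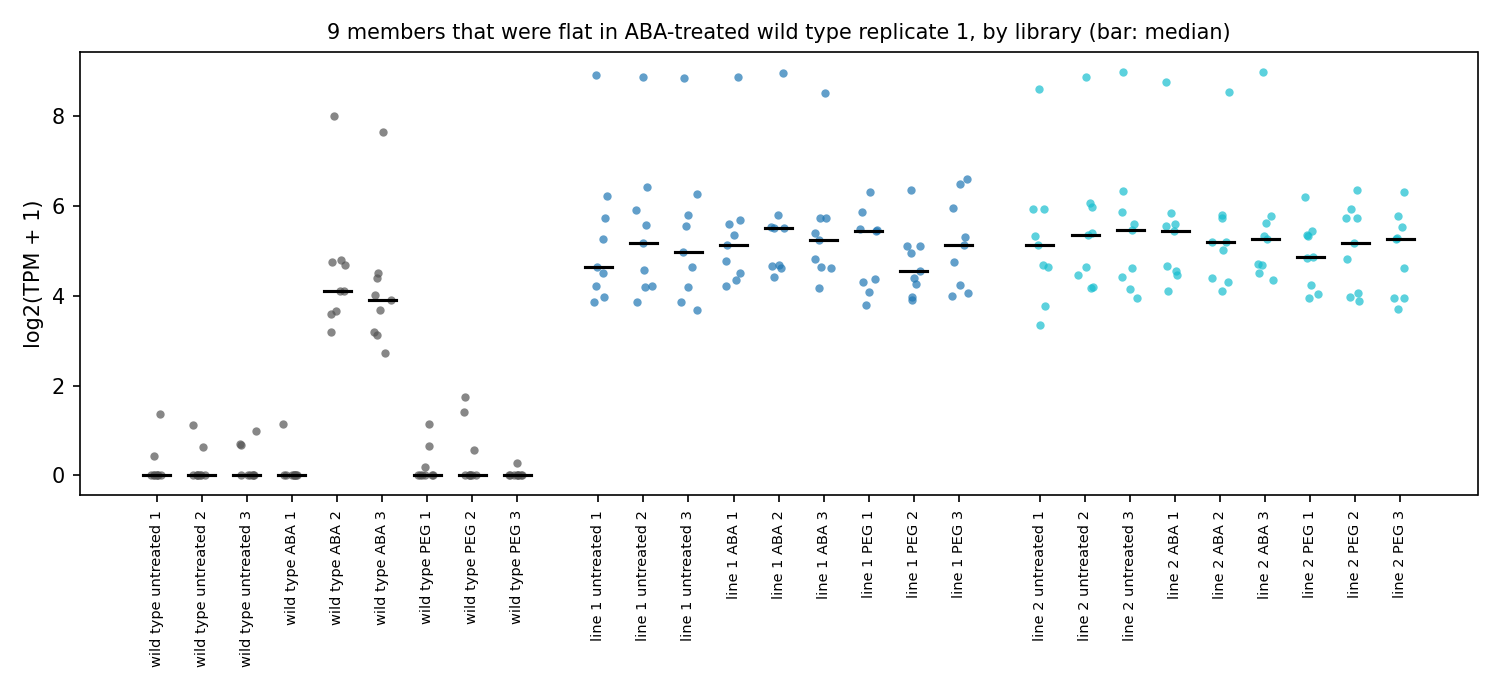
TPM on a log2(TPM + 1) axis of the 9 members that were flat in ABA-treated WT-OE replicate 1, in each of the 27 libraries of the overexpression experiment. Points are members and bars are medians. In WT-OE, ABA replicates 2 and 3 stand apart from the other 7 libraries, and both lines are high in every condition.

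In the knockout, 113 members could be tested and 19 fell under the filter on low values (at least 1 in at least 3 libraries). The spread of this model also drew on the WT-KO libraries that the rule used. With ABA, 35 of the 113 (31.0%) were higher and 21 (18.6%) lower, against 15.0% and 27.8% of the 42926 genes tested. The median log2 difference was 0.12 over the 113 members tested and 0.17 without the 9 flat ones, beside -0.12 over all genes tested, and the 132 members ran from -3.12 to 3.56. The members as a group therefore centred near 0 in the knockout, as the rule had made them do in WT-KO, but a share of them did move. By comparison, 392 of the 399 genes raised in both wild types were called higher with ABA in the knockout, and so were 54 of the 80 genes that met the reverse of the rule (at least 2 in WT-KO and under 0.5 in WT-OE). Of those 80, 50 were tested in the lines, where 12 (24%) were higher with ABA in line 1 and 10 (20%) in line 2. Over all genes tested there, 15.9% and 14.1% were higher. The rest of the 80 fell under the filter in the overexpression experiment, which every member passed.

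The 35 members called higher in the knockout had a median log2 change of 0.99, from 0.30 to 3.56, and 17 reached 1. In WT-KO, the ABA difference of these 35 ran from -1.55 to 0.48 and was above 0 in 25. The 21 called lower had a median of -1.38, and all 21 lay below 0 in WT-KO as well. Leaving out untreated knockout replicate 3 lowered the count of lower calls from 21 to 13. Whether the knockout's ABA response differed from that of WT-KO was not tested, because the rule had used the WT-KO libraries.

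BnaA03G0177600ZS was a member that rose in the knockout. Its normalized value there was 35.9, 52.1 and 50.4 untreated and 315, 215 and 280 with ABA, a log2 difference of 2.53 ± 0.21 (SE, limma adjusted p = 2.90e-07). In WT-KO it was 146, 134 and 100 untreated and 171, 155 and 142 with ABA. The untreated knockout lay below every untreated WT-KO library, and the ABA-treated knockout above every ABA-treated one. The lines rose by 2.64 ± 0.14 and 2.40 ± 0.14 (SE).

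BnaC02G0242600ZS had the largest fitted rise in the knockout but scattered widely. Its value was 0, 9.65 and 0 untreated and 27, 35.7 and 16.2 with ABA (3.56 ± 1.29, SE, limma adjusted p = 0.0357). In WT-KO it was 12.9, 0 and 24.6 untreated and 0, 0 and 27.3 with ABA. The call was lost without untreated replicate 1 or 3, or without any 1 of the ABA replicates, at limma adjusted p values of 0.0502 to 0.126, and with no filter on low values (0.0685).

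BnaC06G0411400ZS moved down in the knockout experiment. Its value was 101, 56.1 and 110 in the untreated knockout and 9.58, 10.5 and 6.97 with ABA, a log2 difference of -3.12 ± 0.46 (SE, limma adjusted p = 6.64e-05). WT-KO went from 71.9, 44.2 and 139 to 12.8, 11.5 and 13.8. In line 1 it was listed at 0 in the 3 untreated libraries and had a TPM of 2.82, 3.94 and 9.12 with ABA (limma adjusted p = 0.000505). In line 2 it went from 0.131, 0 and 0.412 to 1.58, 1.86 and 1.38, a change of 1.15 ± 0.51 (SE) that was not called (limma adjusted p = 0.0958). No ABA library overlapped with an untreated one in any of these genotypes, and the direction in the lines was opposite to that in the knockout.

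BnaA03G0092400ZS was also lower with ABA in the knockout and higher in line 1, at lower values. The untreated knockout held 31.6, 9.03 and 48.1 and the ABA-treated knockout 2.37, 7.40 and 1.54 (-2.60 ± 0.55, SE, limma adjusted p = 0.00135). Line 1 was listed at 0 in all 3 untreated libraries and held a TPM of 0.847, 1.36 and 2.36 with ABA (limma adjusted p = 0.0189). Line 2 held 0, 0 and 0.146 untreated and 1.22, 0.470 and 1.06 with ABA, a change of 0.85 ± 0.41 (SE) that was not called (limma adjusted p = 0.129). These are low levels in the lines.

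Of the 110 members higher with ABA in both lines, 97 were tested in the knockout. There 34 were higher, 15 lower and 48 not called. Over the 39236 genes tested in both experiments, 8.80% were higher in both lines and in the knockout, and 0.392% were higher in both lines and lower in the knockout. By the values alone, 21 members had every ABA library above every untreated one in both lines and below in the knockout (0.560% of all genes), and 27 members did so with PEG (1.03%). The rule itself favours such opposite courses, because it chose genes raised in WT-OE and not in WT-KO.

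**Figure D4:**
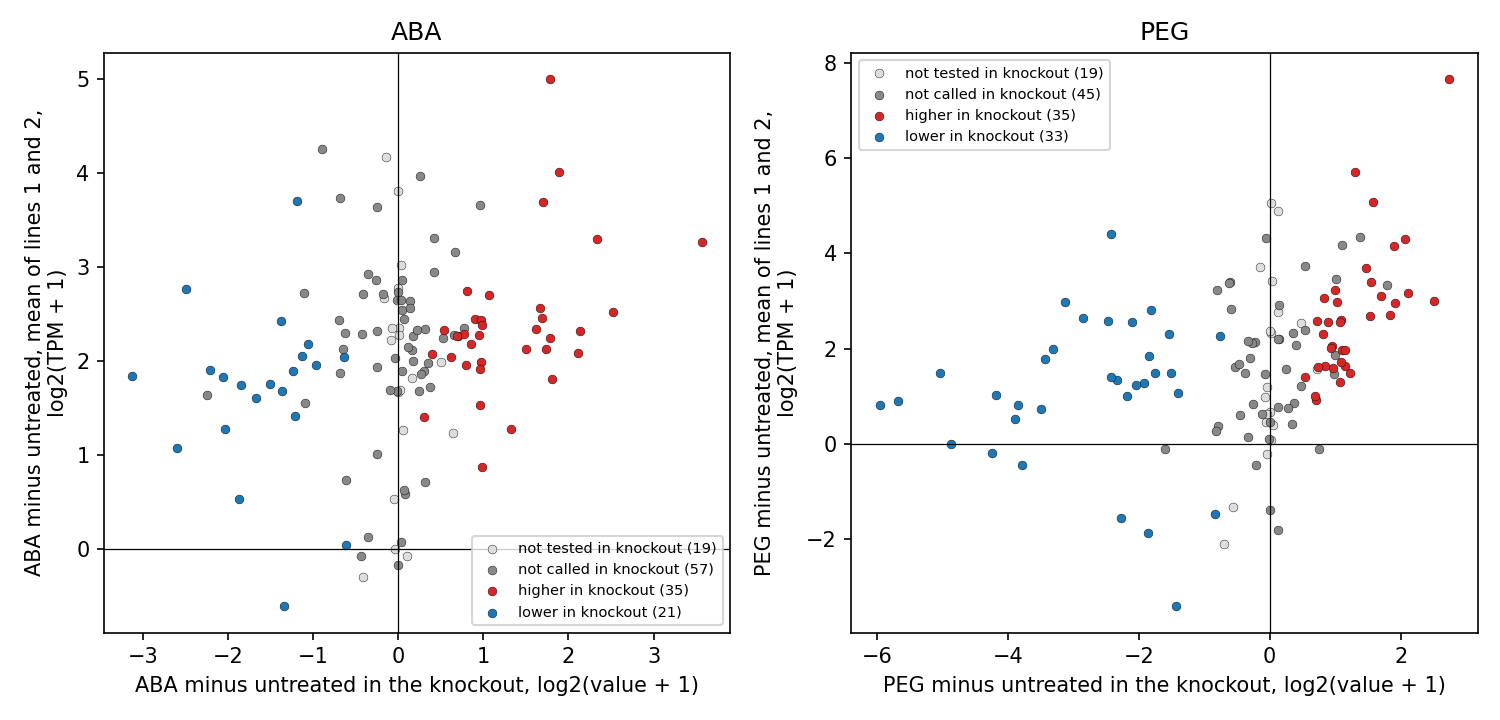
Mean difference of lines 1 and 2 (vertical axis, log2(TPM + 1)) against the difference in the knockout (horizontal axis, log2 of the normalized value + 1) for the 132 members, with ABA (left) and PEG (right). Colours give the limma call in the knockout. With ABA nearly all points lie above 0 on the vertical axis and spread to both sides of 0 on the horizontal axis, where 35 were called higher and 21 lower.

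PEG libraries took no part in the rule. The PEG differences of the wild types share untreated libraries with it and are a description: the median was 1.74 in WT-OE and -0.26 in WT-KO, or 1.89 and -0.08 without the 9 flat members. In WT-OE, 58 members reached 2, where 2.10% of all genes did, and in WT-KO 5 did, where 1.38% did. In WT-KO, 45 members lay at -1 or less, where 6.43% of all genes did. The members chosen on ABA thus stood apart between the wild types with PEG too, with the untreated libraries shared between both differences.

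In the lines, whose libraries the rule did not use, most members rose with PEG. Line 1 had 103 of 132 higher and 7 lower by limma, against a background of 41.9% and 26.2% of all genes. Line 2 had 101 higher and 7 lower, against 38.7% and 26.3%. The median log2 difference was 1.90 in line 1 and 1.58 in line 2, beside 0.19 and 0.14 over all genes tested. Without the 9 flat members the medians were 2.11 and 1.71, with 4 members lower in line 1 and 5 in line 2. Both lines raised 99 members (35.5% of all genes tested), and both lowered 6 (22.7%). A rise with PEG was not particular to the members. Of the 399 genes raised by ABA in both wild types, 394 were higher with PEG in each line. Of the 50 tested genes that met the reverse of the rule, 36 were higher in each line.

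In the knockout, 35 of 113 members were higher with PEG and 33 lower, against 35.3% and 21.8% of all genes, so the share that rose was near the background. The median difference was 0.00 over the 113 tested and 0.12 without the 9 flat members, beside 0.13 over all genes tested. The 33 lower calls had a median log2 change of -2.42, and all 33 lay below 0 in WT-KO with PEG as well. The 35 higher calls had a median of 1.10, and 31 of them lay above 0 in WT-KO. Of the 99 members raised by PEG in both lines, 86 were tested in the knockout, where 33 were higher, 23 lower and 30 not called. Those patterns held for 25.8% (higher) and 1.43% (lower) of the genes tested in both experiments.

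BnaA01G0353200ZS rose with PEG in every genotype. Its TPM was 0.403, 0.611 and 0.522 untreated and 335, 519 and 314 with PEG in line 1, a log2 difference of 7.98 ± 0.24 (SE, limma adjusted p = 5.44e-17). In line 2 it went from 1.36, 1.14 and 0.704 to 373, 295 and 334 (7.35 ± 0.24, limma adjusted p = 2.69e-16). In the knockout it went from 5.81, 5.95 and 7.89 to 48.5, 51.3 and 47.3 (2.74 ± 0.21, limma adjusted p = 1.04e-07), and in WT-KO from 4.58, 7.70 and 11.2 to 43.8, 54.1 and 47.9. No PEG library overlapped with an untreated one. With ABA it rose in the lines, by 2.83 ± 0.24 and 2.59 ± 0.24 (SE), while the knockout held 5.52, 6.31 and 5.06 and was not called (limma adjusted p = 0.512).

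BnaC06G0196500ZS behaved likewise in the lines, with a TPM of 0.520, 0.310 and 0.359 untreated and 89.5, 96.8 and 65.4 with PEG in line 1 (5.91 ± 0.26, SE, limma adjusted p = 2.37e-14). In the knockout, BnaC09G0464900ZS went from 2.15, 2.19 and 2.66 to 19.5, 21.5 and 13.8 with PEG (2.52 ± 0.19, SE, limma adjusted p = 1.06e-07). It also rose there with ABA, to 5.83, 4.81 and 6.23 (0.99 ± 0.19, limma adjusted p = 0.000684). In WT-KO it held 6.16, 3.70 and 4.04 untreated and 5.90, 5.51 and 5.82 with ABA, so the untreated knockout lay below untreated WT-KO and the ABA groups overlapped.

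The lowest PEG changes in the knockout belonged to BnaC06G0411400ZS and BnaA07G0349100ZS. The first fell from the untreated values above to 0.312, 0.379 and 0.506 (-5.95 ± 0.46, SE, limma adjusted p = 1.24e-07). The second fell from 98.7, 61.8 and 108 to 0.428, 0.466 and 1.44 (-5.67 ± 0.45, SE, limma adjusted p = 1.71e-07), and WT-KO fell from 80.9, 40.3 and 137 to 0.0487, 1.32 and 3.08. With ABA this gene held 20.6, 13.8 and 10.8 in the knockout, below untreated (-2.50 ± 0.45, limma adjusted p = 0.000407).

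In the overexpression experiment BnaA07G0349100ZS had the opposite course with ABA. Line 1 went from a TPM of 0.259, 0 and 0 to 7.63, 9.65 and 22.8 (3.59 ± 0.49, SE, limma adjusted p = 4.69e-06). Line 2 went from 0.132, 0.327 and 0.416 to 4.58, 3.48 and 3.87 (1.95 ± 0.49, limma adjusted p = 0.00415). With PEG line 1 held 0.377, 0.580 and 2.30 and line 2 held 0.322, 7.12 and 0.474, with no call in either (limma adjusted p = 0.135 and 0.0893).

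BnaA07G0249300ZS was lower with PEG in the knockout and higher with PEG in the lines. In the knockout it went from 160, 115 and 199 untreated to 96.5, 92.6 and 62.8 with ABA, which was not called (limma adjusted p = 0.172), and to 2.46, 3.22 and 6.37 with PEG (-5.03 ± 0.51, SE, limma adjusted p = 1.44e-06). In line 1 the PEG libraries held a TPM of 3.59, 2.25 and 10.03, above untreated (1.70 ± 0.53, SE, limma adjusted p = 0.00696). Line 2 was also higher with PEG, by 1.25 ± 0.53 (SE, limma adjusted p = 0.0427).

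The members lowered by PEG in both lines by the largest amounts were BnaC06G0382800ZS and BnaA04G0140000ZS. The first, 1 of the 9 described above, fell to a TPM of 43.4, 20.0 and 95.8 in line 1 (-3.39 ± 1.01, SE, limma adjusted p = 0.00532) and to 27.6, 52.2 and 45.5 in line 2 (-3.45 ± 1.01, limma adjusted p = 0.00504). The second went from 6.32, 8.79 and 14.0 to 1.21, 1.00 and 1.34 in line 1 (-2.23 ± 0.33, SE, limma adjusted p = 2.97e-06). In line 2 it went from 7.34, 7.77 and 7.11 to 0.339, 1.77 and 1.51 (-1.998 ± 0.33, limma adjusted p = 1.47e-05). Untreated WT-OE held 0.878, 0.321 and 1.08 of this gene, below both untreated lines.

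**Figure D5:**
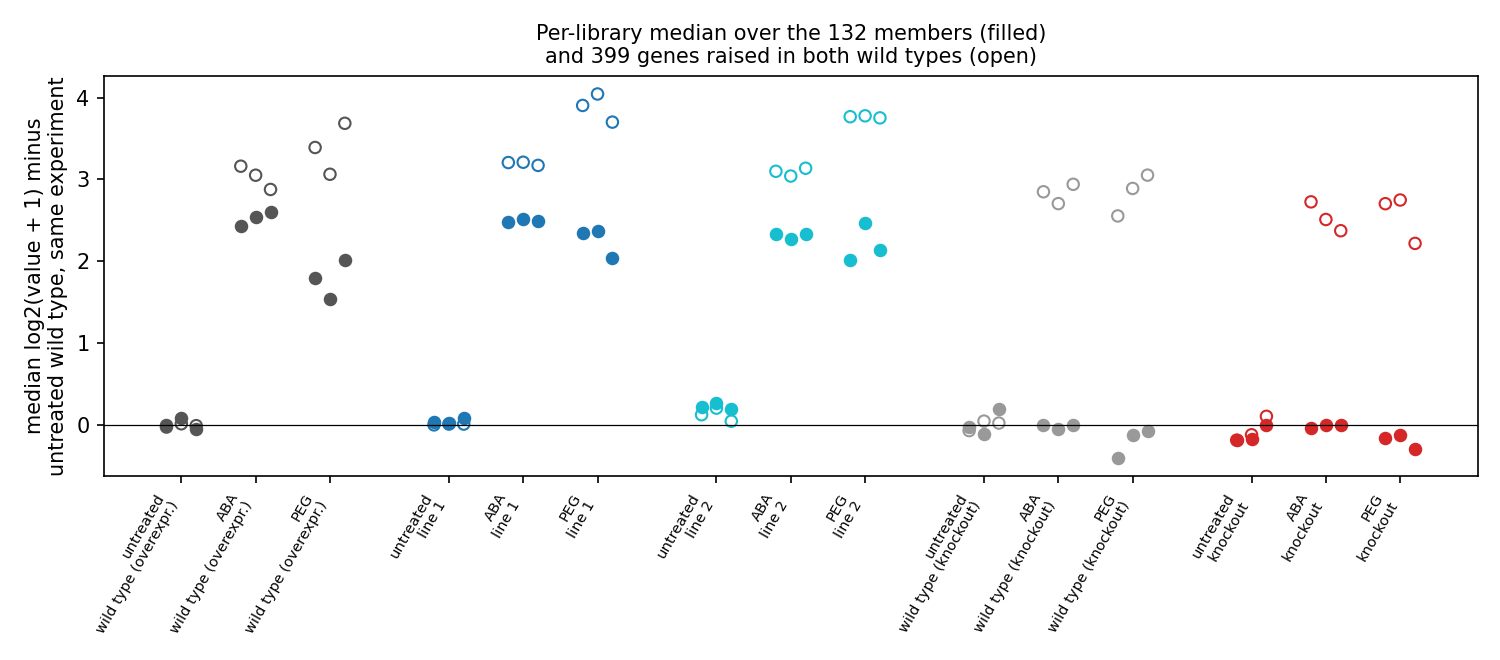
Median over the 132 members (filled) and over the 399 genes raised in both wild types (open) of log2(value + 1) minus the mean of the untreated wild type of the same experiment, 1 point per library. The members' ABA libraries sit between 2.28 and 2.60 in the overexpression experiment and between -0.05 and 0 in the knockout experiment, and their PEG libraries between 1.54 and 2.47 and between -0.41 and -0.08.

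The genotypes could be tested against their own wild type in the PEG libraries. Line 1 had 21 members higher and 7 lower than WT-OE by limma, against 6.53% and 6.91% of all genes, and line 2 had 20 higher and 4 lower, against 5.41% and 5.22%. Both comparisons share the PEG-treated WT-OE libraries. Without the 9 flat members the counts of higher members were 12 in line 1 and 11 in line 2. Without PEG-treated WT-OE replicate 3 the higher counts were 40 and 31, and without PEG-treated line 1 replicate 3 the count in line 1 was 34. In a model of the compared groups alone the higher counts were 12 and 13. Higher values than WT-OE with PEG were not particular to the members. Of the 399 genes raised by ABA in both wild types, 163 (40.9%) were higher in line 1 and 106 (26.6%) in line 2. Of the 50 tested genes that met the reverse of the rule, 16 (32%) and 11 (22%) were higher.

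BnaA10G0187900ZS had a TPM of 78.7, 80.8 and 89.0 in line 1 with PEG and 72.5, 81.4 and 79.1 in line 2, and was listed at 0 in WT-OE (limma adjusted p = 5.51e-07 and 6.25e-07). BnaA02G0409800ZS, also listed at 0 in WT-OE with PEG, held 42.4, 33.7 and 26.1 in line 1 and 42.5, 52.5 and 37.7 in line 2 (limma adjusted p = 3.69e-07 and 1.23e-07). Every line library lay above every WT-OE library in both genes.

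BnaA08G0109000ZS was lower than WT-OE with PEG in each line. It had a TPM of 40.7, 6.09 and 34.3 in WT-OE, 0.599, 0.966 and 1.37 in line 1 and 0.654, 3.63 and 3.11 in line 2. The log2 changes were -3.49 ± 0.51 (SE, limma adjusted p = 5.43e-05) in line 1 and -2.79 ± 0.51 (limma adjusted p = 0.000663) in line 2. In line 2 the call was lost in a model of the compared groups alone (limma adjusted p = 0.0902). The other members lower in line 2 were BnaC01G0037600ZS, BnaA03G0514000ZS and BnaA07G0059300ZS, named after their values were seen.

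In the knockout with PEG, 4 of the 113 members were higher than WT-KO and 1 was lower by limma, against 0.727% and 0.601% of all genes. The lower one was again BnaA08G0109000ZS, named here after its values were seen, at 4.02, 5.09 and 3.10 in WT-KO and 1.27, 0.898 and 0.134 in the knockout (-1.56 ± 0.23, SE, limma adjusted p = 0.000774). The call in the knockout was lost, with 0 members lower, with a pseudocount of 0.1 and in a model of the compared groups alone, and a stricter filter (at least 5 in at least 3 libraries) left this gene untested and 0 members lower. Without the 9 flat members 2 were higher. The count of lower members was 3 without PEG-treated WT-KO replicate 1, and the count of higher members was 7 without PEG-treated knockout replicate 1.

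BnaC06G0382800ZS, the member with the largest untreated difference in the lines, was also higher in the knockout. With PEG its value was 463, 221 and 639 in the knockout and 4.92, 5.62 and 6.89 in WT-KO (5.90 ± 0.47, SE, limma adjusted p = 6.93e-07). Untreated it was 907, 1106 and 1303 in the knockout and 18.7, 24.1 and 70.9 in WT-KO, and with ABA 466, 1409 and 799.9 against 4.84, 3.77 and 6.25. The gene therefore stood above its own wild type in every condition in the knockout and, apart from ABA replicates 2 and 3 of WT-OE, far above it in the lines.

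BnaA06G0171100ZS, 1 of the 9 members as well, held 8.14, 7.80 and 8.45 in the knockout with PEG and 0, 0.00593 and 0 in WT-KO (limma adjusted p = 9.51e-09). Untreated WT-KO held 7.79, 6.49 and 12.2 and the untreated knockout 7.25, 7.44 and 10.2, so these groups overlapped without treatment. With ABA WT-KO was listed at 0 in its 3 libraries and the knockout held 7.40, 7.80 and 11.1. The other members higher in the knockout with PEG were BnaA06G0423400ZS (0.89 ± 0.14, SE, limma adjusted p = 0.00177) and BnaC08G0408700ZS (1.35 ± 0.25, limma adjusted p = 0.00741), named after their values were seen. Both had also been called higher than WT-OE in both lines with PEG.

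The 9 members flat in ABA-treated WT-OE replicate 1 also had lower values with ABA in WT-KO, by the libraries the rule used. Their log2 differences there ran from -3.85 to -1.07. Their summed value in WT-KO was 75.2, 80.4 and 165 untreated, 12.4, 11.8 and 12.6 after ABA, and 16.3, 15.2 and 15.6 after PEG. Untreated libraries thus stood above every treated library of that wild type, with ABA or with PEG. The difference of these 9 in WT-KO is therefore not described as a response to ABA, and its cause was not tested. In the knockout BnaA10G0187900ZS was listed at 0 in all 9 libraries, while untreated WT-KO held 3.17, 3.03 and 6.74.

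The members were spread over the genome. Of the 132, 66 lay on A chromosomes (50.0%, beside 46.1% of all genes) and 64 on C chromosomes (48.5%, beside 50.5%), with the other two on scaffolds. The most were on A09 with 14, C03 with 12 and C08 with 10, and per chromosome they made up between 0.0418% (C09) and 0.257% (C01) of the genes. Only 5 pairs of members stood within 10 running numbers of each other. BnaA07G0196300ZS and BnaA07G0196400ZS, which are neighbours by number, were both among the 9 flat members. BnaA03G0356400ZS and BnaC03G0434000ZS had identical TPM in all 27 overexpression libraries, so their values are not independent measurements. The members of these pairs were named after their values were seen. More generally, reads shared between near-identical copies may be divided between them.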

How the data were processed

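The members and lists were chosen with earlier results of these data known. Leaf RNA was sequenced in 45 libraries. Groups were taken from the titles, which name BnNAC038 throughout, although the genotype field of line 2 names differently numbered NAC genes. Replicates are titled biological, with no word on separate plants, so p-values measure the spread between libraries, which may be technical. The authors deposited the overexpression experiment as TPM per transcript (107233 transcripts), which was summed here to 100919 genes. The unit was read from the values. The authors deposited the knockout experiment as another normalized value per gene (library sums 760713 to 842688), without stating TPM or FPKM. The tools were kallisto 0.51.1, sleuth 0.30.1, HISAT2 and DESeq2 1.38.3, per the submitters' processing notes, which give no roles. Genome build: not given in the sources used here. Read numbers are in neither block: depth is unknown, and counting intervals are left out.

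Genes reaching 1 in 3 or more libraries of an experiment were tested with limma 3.58.1 (R 4.3.3) on log2(value + 1), in a model over all groups of the experiment with a mean trend. The wild type libraries used by the rule therefore entered the spread behind every SE and p-value. The unit required limma in place of a count test. This scale understates the change of low genes. Calls were made at an adjusted p under 0.05 (Benjamini-Hochberg) over all genes tested. The model was tested on simulated data with 200 changed genes. Ranks, differences and figures were made in Python 3.11.15 (pandas 2.3.3, matplotlib 3.10.9). Alternatives were a pseudocount of 0.1, other filters and scalings, a model of the compared groups alone, a replicate block and each library left out. Counts without the 9 flat members and the genes that mark the lines were added after seeing the data.

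Named members were at most 2 per direction and comparison, by the largest change among called members whose higher group averaged 5 or more and whose replicates do not overlap, plus the genes nearest the rule's limits. Where both lines called none, the lowest changes were taken. Any other is marked in the text. Identifiers matched 0 of the 123214 genes in the Da-Ae reference table, so names, sequences, the BnNAC038 gene and leaf markers were not analysed here.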

Additional observations from a re-analysis of the deposited data

Results flagged for a closer look

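Some members moved in opposite directions in the overexpression lines and in the knockout. The rule chose genes raised in WT-OE and not in WT-KO, which favours this pattern wherever mutants follow their own wild type. The shares over all genes, many with little signal, therefore do not measure how unusual it is among members. In 21 members every ABA library lay above every untreated library in both lines and below every untreated library in the knockout, where 0.560% of the 78057 genes showed this pattern. For PEG the same pattern held in 27 members, where 1.03% of all genes showed it. BnaC06G0411400ZS, with a log2 change of -3.12 with ABA in the knockout, and BnaA03G0092400ZS, with -2.60, were 2 of the 21. Neither was called higher with ABA in line 2 by limma, and BnaA03G0092400ZS held low values in both lines. The difference between the experiments was not tested, because their values were normalized separately. Groups of 3 libraries were too small for the check of single libraries far from the rest.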

How the results depend on the processing

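The number of members was 470 with a pseudocount of 0.1 (116 of them shared with the 132) and 128 to 157 with single libraries left out. With ABA, 1 member was lower in line 1 in a model of the compared groups alone, and 1 in line 2 without ABA-treated WT-OE replicates 2 and 3. Without the 9 flat members, 4 were lower with PEG in line 1. Against WT-OE with PEG, the higher members in line 1 were 12 in the model of the compared groups alone, 12 without the 9 and 15 to 40 with single libraries left out, and in line 2 they were 13, 11 and 14 to 31. The lower members were 3 in the model of the compared groups alone and 4 to 8 with libraries left out in line 1. In line 2 they were 2, 1 to 6, and 7 with a pseudocount of 0.1. The knockout had 13 to 22 members lower with ABA with libraries left out. Against WT-KO with PEG, 2 members were higher under a stricter filter (at least 5 in at least 3 libraries) and 4 to 7 with libraries left out. There 0 were lower under that filter, 0 with a pseudocount of 0.1, 0 in the model of the compared groups alone and 1 to 3 with libraries left out. With single libraries left out, the ABA change of BnaC03G0432500ZS ran from -0.31 to 0.057 in line 1 and from -1.65 to 0.57 in line 2, above 0 without ABA replicate 2 in line 1 and without untreated replicate 2 or 3 or ABA replicate 1 in line 2. The cause was not tested. The other 305 counts kept within 1.5 times of the reported ones.

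Replicate numbers did not pair the libraries: correlations of same-numbered deviations ran from -0.42 to 0.23. With a replicate block, 117 and 110 members were higher with ABA in lines 1 and 2, and 34 higher and 20 lower in the knockout.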
